A study of Mus musculus with 6 samples.

Results

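Immediate early genes were followed in RNA sequencing of FACS-sorted DN1a/b thymocytes, the most immature of the CD4- CD8- cells of the thymus. The genes were Fos, Fosb, Jun, Junb, Egr1, Ier2, Dusp1, Atf3, Nr4a1 and Zfp36, taken by symbol, so the set holds 10 of the 47729 genes in each count file, and all 10 were among the 18174 genes with enough counts to be tested. The 6 libraries came from C57BL/6 mice in 3 groups of 2. RBPJ 6 days induced mice had first been deficient in RBPJ, the DNA-binding partner of the cleaved Notch receptor, and were then made to express it by doxycycline, injected at 2 mg/ml and followed by drinking water at 1 mg/ml. RBPJ uninduced mice were deficient in RBPJ, and Control mice had RBPJ throughout. The sources used here do not give the allele that removes RBPJ, the promoter of the inducible copy, the ages or the number of mice behind a library. They also do not state whether Control or uninduced mice had doxycycline, so a response to the drug and one to RBPJ cannot be told apart in comparisons of the induced libraries. No label ties the 2 libraries of any group to different mice, so p-values measure the spread between libraries, which may be technical.

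Immediate early genes are transcribed within minutes of a signal, from factors already in the cell and without new protein synthesis. MAP kinases act through the serum response factor SRF with its ETS-family partners and through CREB. The products include transcription factors of the AP-1 family (FOS and JUN dimers), the zinc finger factor EGR1 and the orphan nuclear receptor NR4A1, together with inhibitors that end the response, such as the phosphatase DUSP1 and the mRNA decay factor ZFP36. In the thymus Nr4a1 and Egr1 are known as genes that follow signals of the pre-T-cell receptor and the T-cell receptor, and many immediate early genes are also known to be switched on while tissue is taken apart and cells are sorted.

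Total counts were 11090902 and 11240828 in the induced libraries, 5098927 and 10918205 in the uninduced libraries and 12932928 and 5311391 in the Control libraries. Mitochondrial rRNA took 9.26% to 12.4% of counts in 5 libraries and 16.5% in uninduced replicate 2. All 10 markers of DN1 progenitors had counts in every library. Their sum was 3009 and 2958 CPM (counts per 1000000, on totals scaled by the trimmed mean of M values) in induced, 2026 and 1639 CPM in uninduced and 3107 and 2536 CPM in Control libraries. In uninduced against Control libraries 9 of the 10 were below 0 (median log2 fold change -0.67), the direction in which Nr4a1, Zfp36 and Egr1 differed. By edgeR 2 of the 10 passed as lower, where 2.93% of all tested genes did. They were Cd44 (-0.89, adjusted p = 0.0188) and Ptprc (-1.16, adjusted p = 0.00956). The other cell types did not stay level. The summed level of 14 T-lineage and later thymocyte markers was 314 and 370.2 CPM in induced, 45.03 and 184.7 CPM in uninduced and 548 and 1315 CPM in Control libraries. Cd3d, Ptcra and Trac had no counts in uninduced replicate 1, Ptcra had none in uninduced replicate 2 and Cd3d none in induced replicate 2. Granulocyte and monocyte markers summed to 757 and 1653 CPM in induced, 4368 and 3355 CPM in uninduced and 580.1 and 509 CPM in Control libraries. Mpo was most of this sum, at 603.9 and 1300, 3712 and 2718, and 494.6 and 420.5 CPM in the same order. Mast cell and basophil markers summed to 370.4 and 345.0 CPM in induced, 980.1 and 632.5 CPM in uninduced and 84.9 and 69.5 CPM in Control libraries, and erythroid markers to 149.4 and 86.6, 191.2 and 556.0, and 0.990 and 21.1 CPM in the same order. Natural killer and innate lymphoid markers summed to 178.3 and 134.4 CPM in induced, 227.2 and 218.2 CPM in uninduced and 80.8 and 112.2 CPM in Control libraries, without overlap. Stromal and endothelial markers summed to 158.9 and 160.5, 99.97 and 99.4, and 162.9 and 170.7 CPM in the same order, lowest in uninduced libraries. Most of this sum was Pecam1, at 151.6 and 155.7, 85.0 and 90.9, and 160.8 and 144.5 CPM. The lower sum in uninduced libraries was therefore mainly that gene. Dendritic cell markers ranged from 115.3 to 306.2 CPM. Flt3, which is also a DN1 marker, held 176.3 and 148.7, 56.2 and 20.7, and 167.9 and 88.3 CPM of them. B-lineage markers summed to 760.6 CPM in uninduced replicate 2 and to between 7.01 and 40.3 CPM elsewhere. The part of any cell type in the values that follow was not tested, and in bulk RNA fewer cells with a transcript cannot be told apart from less of it per cell.

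As a set the 10 genes were expressed strongly in all 3 groups. They took 0.438% and 0.342% of all counts in induced, 0.389% and 0.250% in uninduced and 0.377% and 0.420% in Control libraries. Set per kilobase of exon, so that genes can be compared, Jun was the highest of the 10 in each of the 6 libraries, at 505.2 and 435.6 CPM per kilobase in induced, 384.7 and 348.5 in uninduced and 348.8 and 311.9 in Control libraries. By its mean over the libraries, Jun stood above 99.6% of the 18100 tested genes with an annotated length on this scale, and Atf3, the lowest of the set, above 88.7%. In the induced group Fos came next (210.0 and 139.6 CPM per kilobase) and did not overlap Ier2 (128.9 and 102.6). From Ier2 on through Egr1 (108.6 and 92.3), Zfp36 (101.1 and 87.6) and Junb (95.1 and 79.7), each gene overlapped the next. In the uninduced group Fos (241.9 and 136.6 CPM per kilobase) and Fosb (113.2 and 76.4) did not overlap, whereas the genes from Ier2 down to Dusp1, with means of 65.6 to 61.1, did. In the Control group the genes with the next 6 means after Jun, from Nr4a1 at 161.8 to Ier2 at 111.2 CPM per kilobase, overlapped as neighbours. Nr4a1 changed place most, with the second highest mean of the 10 in Control libraries and the lowest in uninduced libraries.

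**Figure D1:**
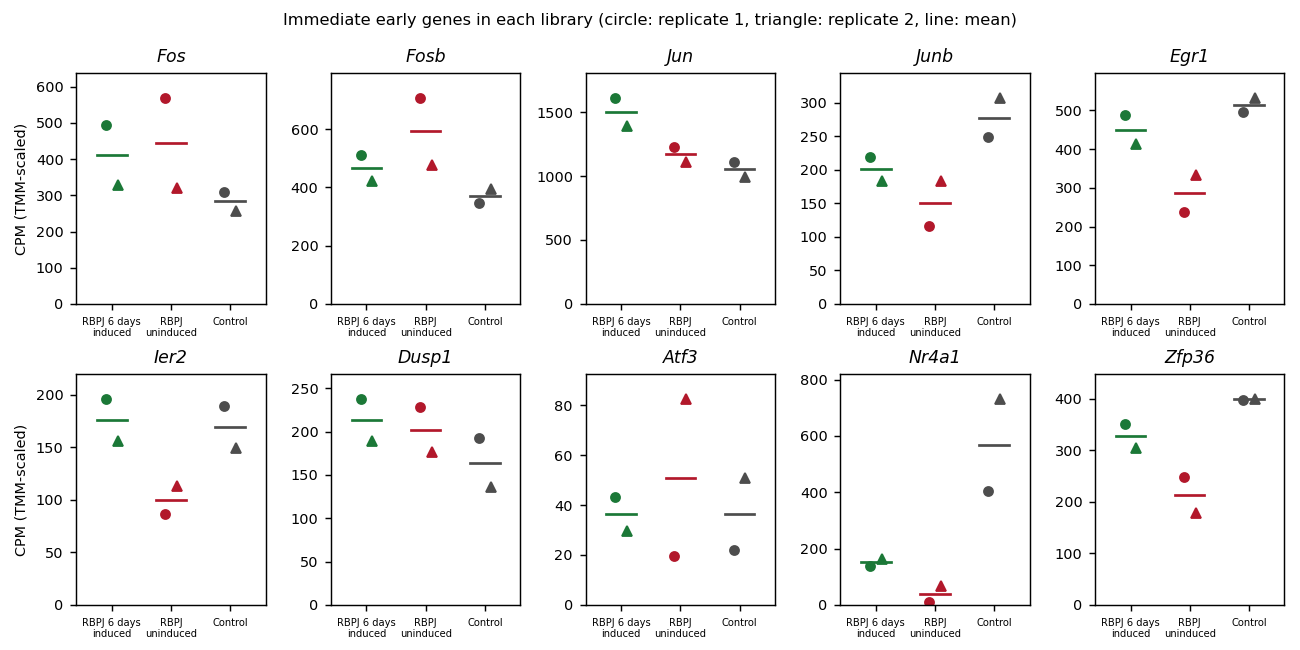
Level of each immediate early gene in CPM (y axis, from 0) in the RBPJ 6 days induced, RBPJ uninduced and Control libraries. Circles are replicate 1, triangles replicate 2 and lines the mean of 2. Nr4a1, Egr1, Ier2, Junb and Zfp36 are lower in both uninduced than in both Control libraries, and Fos and Fosb are higher.

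Nr4a1 (ENSMUSG00000023034, mm10 chromosome 15, 101254269 to 101274795, plus strand) encodes NUR77, an orphan nuclear receptor. It stood at 139.6 and 164.2 CPM in induced libraries, at 10.95 and 68.3 CPM in uninduced libraries and at 403.8 and 731.6 CPM in Control libraries. The 3 groups did not overlap. In uninduced libraries Nr4a1 fell to 39.6 ± 40.6 CPM, against 568 ± 232 CPM in Control libraries (mean ± SD, n = 2 each), a log2 fold change of -3.82 (SE 0.667, 95% interval -5.32 to -2.32, edgeR adjusted p = 0.0129), or 14.1-fold lower. It was the largest difference of the set. Its level also ran in the same order over the 6 libraries as the summed T-lineage markers, from uninduced replicate 1 at the bottom through uninduced replicate 2 and the induced libraries to Control replicate 2 at the top, and the part of T-lineage cells in its level was not tested. No annotated gene overlaps Nr4a1 in this annotation.

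Zfp36 (ENSMUSG00000044786, mm10 chromosome 7, 28376784 to 28380253, minus strand) encodes tristetraprolin, which binds AU-rich messages, those of Fos and Tnf among them, and speeds their decay. It stood at 350.9 and 303.9 CPM in induced, 247.8 and 178.2 CPM in uninduced and 398 and 399.8 CPM in Control libraries, and the 3 groups did not overlap. Zfp36 fell to 213 ± 49.2 CPM in uninduced libraries, against 399 ± 1.26 CPM in Control libraries (mean ± SD, n = 2 each), a log2 fold change of -0.91 (SE 0.198, edgeR adjusted p = 0.0321). The antisense gene Gm44710 overlaps Zfp36 exons and held at most 3 counts in any library.

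The promoters of 8 of the 10 genes (250 bases before and 50 bases after the start) were read from RefSeq on GRCm38.p6, and Egr1 and Ier2 had no entry. Those of the 2 genes described above are shown with those of Fos and Fosb, whose levels were above Control in the uninduced libraries without passing the test. Capitals mark a short CRE core (TGACG, or CGTCA on the other strand), the inner part of the CREB and ATF motif, an EGR site (GCGGGGGCG or GCGTGGGCG on either strand), or a CArG box, the SRF motif. The Nr4a1 promoter is at chr15:101266596-101266895 on the plus strand and that of Zfp36 at chr7:28379179-28379478 on the minus strand, both inside the annotated gene. That of Fos is at chr12:85473640-85473939 on the plus strand and that of Fosb at chr7:19309996-19310295 on the minus strand, each printed 5′ to 3′ on the strand of the gene.
Nr4a1: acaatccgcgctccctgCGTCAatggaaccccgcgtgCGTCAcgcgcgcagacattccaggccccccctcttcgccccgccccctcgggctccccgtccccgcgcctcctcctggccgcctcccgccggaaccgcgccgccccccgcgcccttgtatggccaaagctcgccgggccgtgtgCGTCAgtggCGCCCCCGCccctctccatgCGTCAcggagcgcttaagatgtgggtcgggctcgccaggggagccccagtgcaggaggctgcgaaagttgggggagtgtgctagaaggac
Zfp36: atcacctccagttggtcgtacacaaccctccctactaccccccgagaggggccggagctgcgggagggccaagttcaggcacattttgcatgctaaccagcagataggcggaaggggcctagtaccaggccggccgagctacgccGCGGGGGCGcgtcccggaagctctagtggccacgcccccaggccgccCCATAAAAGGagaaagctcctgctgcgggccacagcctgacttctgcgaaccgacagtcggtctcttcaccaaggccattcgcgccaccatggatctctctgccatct
Fos: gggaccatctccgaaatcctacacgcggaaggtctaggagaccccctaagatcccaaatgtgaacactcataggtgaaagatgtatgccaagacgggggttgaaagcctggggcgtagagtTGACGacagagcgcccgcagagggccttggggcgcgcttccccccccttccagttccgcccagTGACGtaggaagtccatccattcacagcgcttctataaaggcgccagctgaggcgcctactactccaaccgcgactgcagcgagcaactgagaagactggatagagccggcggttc
Fosb: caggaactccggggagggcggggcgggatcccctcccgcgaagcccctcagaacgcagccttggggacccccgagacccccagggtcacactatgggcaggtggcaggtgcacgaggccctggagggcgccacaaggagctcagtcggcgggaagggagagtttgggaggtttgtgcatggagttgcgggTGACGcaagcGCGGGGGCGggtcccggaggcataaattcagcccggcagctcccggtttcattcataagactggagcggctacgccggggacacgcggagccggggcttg
Nr4a1 held 4 short CRE cores and 1 EGR site in this window. Fos held 2 short CRE cores, and Fosb held 1 of each. Zfp36 held 1 EGR site and the only CArG box among the 8 promoters. A short CRE core was present in 6 of the 8 promoters and in 20.8% of all 32851 promoters in the table, an EGR site in 3 and in 3.47%, and a CArG box in 1 and in 1.63%. The full CRE (TGACGTCA, which contains the short core) was in 1 of the 8, that of Dusp1, and in 1.79% of all. The RBPJ core motif TGGGAA, on either strand, was in 1 of the 8, that of Jun, and in 25.6% of all promoters. The AP-1 motifs TGACTCA and TGAGTCA were in none of the 8 and in 5.2% of all. These are matches of letters in a short window, and do not show binding.

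Ier2 (ENSMUSG00000053560, mm10 chromosome 8, 84661331 to 84662852, minus strand), which encodes a nuclear protein of the early response, stood at 196.2 and 156.2 CPM in induced, 86.9 and 112.8 CPM in uninduced and 189.3 and 149.3 CPM in Control libraries. Both uninduced libraries lay below all other 4, and the induced and Control libraries overlapped. The log2 fold change was 0.82 for induced against uninduced (SE 0.219, adjusted p = 0.106) and -0.76 for uninduced against Control (SE 0.219, adjusted p = 0.0838), and neither passed.

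Egr1 (ENSMUSG00000038418, mm10 chromosome 18, 34859823 to 34864984, plus strand) encodes a zinc finger transcription factor. It stood at 487 and 414 CPM in induced, 237 and 334.2 CPM in uninduced and 494.9 and 532.3 CPM in Control libraries. The uninduced libraries were again the lowest, and both induced libraries lay below both Control libraries. Egr1 fell to 285.6 ± 68.8 CPM in uninduced libraries, against 514 ± 26.5 CPM in Control libraries (mean ± SD, n = 2 each), a log2 fold change of -0.85 (SE 0.201, edgeR adjusted p = 0.0433). Against the uninduced libraries the induced ones differed by 0.66 (SE 0.200, adjusted p = 0.146), which did not pass.

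None of the 4 FOS and JUN genes passed in any comparison of the main edgeR fit. DESeq2 called Junb lower in uninduced against Control libraries (adjusted p = 0.00155). It also passed there in edgeR with DESeq2's size factors (adjusted p = 0.0438), no filter on low counts (0.0111) or a replicate block (0.0396). Junb (ENSMUSG00000052837, mm10 chromosome 8, 84974484 to 84978718, minus strand), a JUN protein that is a weaker activator than c-JUN on many targets, stood at 218.9 and 183.5 CPM in induced, 116 and 183.6 CPM in uninduced and 248.2 and 306.9 CPM in Control libraries. Both uninduced libraries lay below both Control libraries, but uninduced replicate 2 was level with induced replicate 2, and the difference from Control was -0.89 on the log2 scale (SE 0.241, adjusted p = 0.0692). Exons of Prdx2 on the other strand overlap Junb and held 312 to 1066 counts per library. The sources used here do not give the strand setting of the counting, so reads in the shared stretch may have counted for either gene or for none.

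Fos (ENSMUSG00000021250, mm10 chromosome 12, 85473890 to 85477273, plus strand), the founding FOS subunit of AP-1, stood at 493.8 and 328.3 CPM in induced, 569 and 321.3 CPM in uninduced and 310.2 and 255.8 CPM in Control libraries. Its replicates were further apart than its groups in the induced and uninduced mice, and every library of both lay above the Control libraries. Fosb (ENSMUSG00000003545, mm10 chromosome 7, 19302696 to 19310051, minus strand), its paralogue, stood at 510.5 and 422.5 CPM in induced, 706.7 and 476.7 CPM in uninduced and 346.4 and 392.7 CPM in Control libraries. Fosb too was lowest in the Control libraries. Uninduced against Control, the log2 fold changes were 0.65 for Fos (SE 0.288, 95% interval 0.01 to 1.30, adjusted p = 0.261) and 0.68 for Fosb (SE 0.215, 95% interval 0.20 to 1.16, adjusted p = 0.113), and neither passed.

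Jun (ENSMUSG00000052684, mm10 chromosome 4, 95049034 to 95052222, minus strand), which encodes c-JUN, stood at 1611 and 1389 CPM in induced, 1227 and 1111 CPM in uninduced and 1112 and 994.7 CPM in Control libraries. The induced libraries were above all other 4, and the uninduced and Control libraries overlapped. The induced libraries differed from uninduced by 0.36 (95% interval -0.00 to 0.72, adjusted p = 0.327) and from Control by 0.51 (95% interval 0.15 to 0.87, adjusted p = 0.542), both on the log2 scale and neither past the threshold. The antisense gene Junos overlaps Jun exons, with 6 to 64 counts per library.

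Dusp1 (ENSMUSG00000024190, mm10 chromosome 17, 26505590 to 26562128, minus strand), a nuclear phosphatase that switches off MAP kinases, had the closest group means of the 10 genes as a ratio of highest to lowest. It stood at 237.7 and 189.2 CPM in induced, 228.3 and 176.2 CPM in uninduced and 192.1 and 135.5 CPM in Control libraries. Its groups overlapped in every comparison, and the 95% intervals of its log2 fold changes reached from -0.44 to 0.59 for induced against uninduced, -0.14 to 0.90 for induced against Control and -0.22 to 0.82 for uninduced against Control. Exons of Ergic1 on the other strand overlap it and held 303 to 951 counts. Atf3 (ENSMUSG00000026628, mm10 chromosome 1, 191170296 to 191218039, minus strand), a stress-induced factor of the ATF and CREB family, stood at 43.4 and 29.6 CPM in induced, 19.5 and 82.6 CPM in uninduced and 21.9 and 50.9 CPM in Control libraries. Its uninduced and Control replicates differed by more than its group means, and the 95% interval for uninduced against Control, -0.84 to 1.85, covers 0.

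Because ratios of 2 genes within a library do not depend on how libraries are scaled, the levels were also set out that way, for pairs picked after the values above were seen. Fosb over Egr1, per kilobase, was 0.753 and 0.733 in induced, 2.14 and 1.02 in uninduced and 0.503 and 0.530 in Control libraries. The 3 groups did not overlap, with uninduced highest and Control lowest. Fosb over Junb was 0.860 and 0.849 in induced, 2.25 and 0.957 in uninduced and 0.514 and 0.472 in Control libraries, in the same order. The induced and uninduced libraries overlapped for Fos over Egr1 (1.93 and 1.51 in induced, 4.58 and 1.83 in uninduced and 1.195 and 0.916 in Control) and for Jun over Junb (5.31 and 5.46 in induced, 7.63 and 4.37 in uninduced and 3.23 and 2.34 in Control). In both ratios the Control libraries were the lowest. Nr4a1 over Egr1 was 0.366 and 0.507 in induced, 0.0591 and 0.261 in uninduced and 1.04 and 1.76 in Control libraries, so Nr4a1 was low in the uninduced libraries also relative to Egr1.

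Setting RBPJ uninduced against Control libraries asks what differs in cells that lack RBPJ. In the edgeR fit of all 6 libraries Nr4a1, Zfp36 and Egr1 passed as lower, and no gene of the set passed as higher. Counted over the set, 3 of 10 were lower, where 2.93% of all tested genes were, and 0 of 10 were higher by edgeR and by DESeq2, where 2.49% of all tested genes were by edgeR. DESeq2 called 5 lower, where it called 6.97% of the genes to which it gave an adjusted p lower and 5.43% higher. At an unadjusted p under 0.05 the edgeR counts were 5 lower and 2 higher, where 8.79% and 10% of all tested genes were. Groups did not overlap for 5 lower genes (Nr4a1, Zfp36, Egr1, Ier2 and Junb) and 2 higher ones (Fos and Fosb), with 22.2% and 22.1% of all tested genes so placed. The median log2 fold change of the 10 was -0.31, beside -0.02 over all tested genes. Over 11 alternative fits the adjusted p of Nr4a1 ran from 1.5e-39 to 0.0852 and it missed the threshold when the 4 compared libraries were fitted alone. Zfp36 (0.000191 to 0.122) and Egr1 (5.04e-05 to 0.13) each passed in 6 of 11. The calls of both were lost in the fit of the 4 libraries and without Control replicate 1 (adjusted p = 0.105 for Zfp36 and 0.13 for Egr1), Control replicate 2 (0.0799 and 0.086) or induced replicate 1 (0.0509 and 0.0867), that of Zfp36 also without uninduced replicate 2 (0.0618) and that of Egr1 also without uninduced replicate 1 (0.0794). The log2 fold change of Nr4a1 was -3.09 without uninduced replicate 1 and -5.7 without uninduced replicate 2. Junb passed in 6 of the 11 and Ier2 in 3, DESeq2 (adjusted p = 0.00155 and 0.00394) and no filter on low counts (0.0111 and 0.0451) among them. Leaving out a library lost calls, as above, but also moved other genes of the set further from 0. Without uninduced replicate 2 the log2 fold change was 0.99 for Fos, 0.92 for Fosb, -1.27 for Junb and -0.98 for Ier2. For Atf3 it was 1.17 without uninduced replicate 1, and for Junb -0.97 without induced replicate 2. Each of these fits leaves 1 library in a group.

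**Figure D2:**
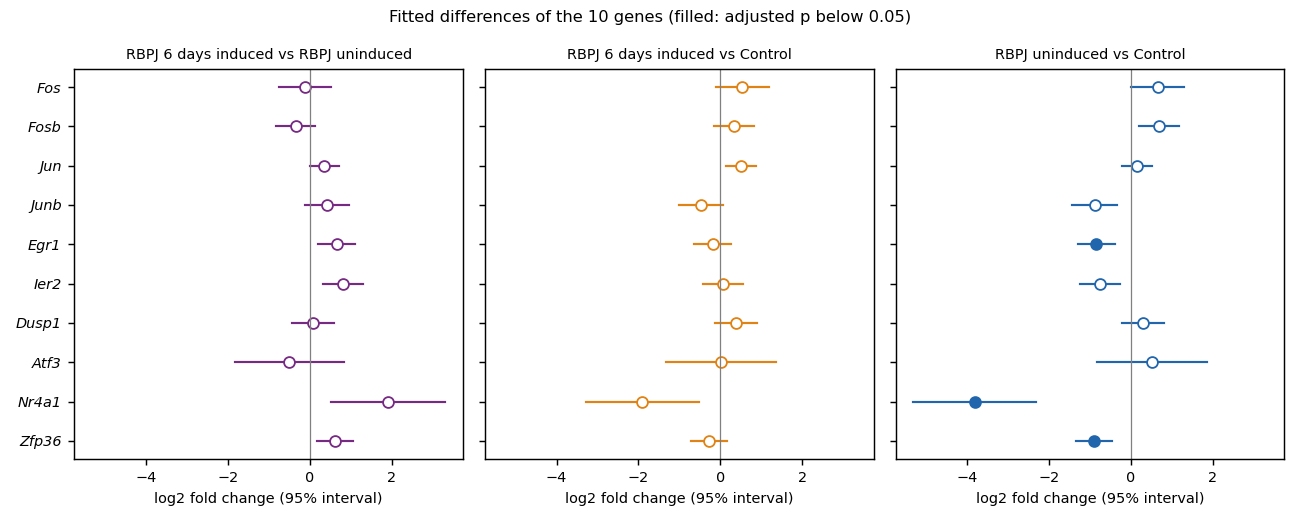
Fitted log2 fold change (x axis) of each of the 10 genes with its 95% interval, for RBPJ 6 days induced vs RBPJ uninduced, RBPJ 6 days induced vs Control and RBPJ uninduced vs Control. Filled points passed an adjusted p of 0.05, which Nr4a1, Egr1 and Zfp36 did in the last panel only.

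Setting RBPJ 6 days induced against RBPJ uninduced libraries asks what changes once RBPJ is expressed again. No gene of the set passed in edgeR, where 1.55% of all tested genes were higher and 0.413% lower, while 4 were higher and 0 lower at an unadjusted p under 0.05, where 8.51% and 6.93% of all tested genes were. DESeq2 called 3 higher (Egr1, Ier2 and Zfp36) and 0 lower, where it called 5.63% and 3.72% of the genes to which it gave an adjusted p. Nr4a1, at 151.9 ± 17.4 CPM in induced and 39.6 ± 40.6 CPM in uninduced libraries (mean ± SD, n = 2 each), had the largest fitted difference, 1.92 on the log2 scale (SE 0.622, 95% interval 0.52 to 3.31, adjusted p = 0.169). The value moved with the uninduced library kept. Without uninduced replicate 2 it was 3.81 (adjusted p = 2.25e-05) and without uninduced replicate 1 it was 1.21 (adjusted p = 0.0164), within a range over 11 alternative fits of 1.41e-11 to 0.236. Zfp36 differed by 0.62 (SE 0.197, adjusted p = 0.16). Without uninduced replicate 2 Egr1 (0.94, adjusted p = 0.0207) and Ier2 (1.03, adjusted p = 0.0245) also passed, and without uninduced replicate 1 Zfp36 did (0.93, adjusted p = 0.0196). Groups did not overlap for 5 higher genes (Nr4a1, Ier2, Egr1, Zfp36 and Jun), where 24.8% of all tested genes were so placed, and for 0 lower ones, where 21.8% were. The median of the 10 was 0.39, beside -0.03 over all tested genes. This comparison and the one before share the uninduced libraries, so their opposite signs are not independent of each other.

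Setting RBPJ 6 days induced against Control libraries asks what still differs after induction. No gene of the set passed in edgeR or in DESeq2, where edgeR placed 0.187% of all tested genes higher and 0% lower, DESeq2 placed 1.39% higher and 0.38% lower, and at an unadjusted p under 0.05 Jun was higher and Nr4a1 lower, where 3.63% and 1.55% of all tested genes were. Nr4a1 stood at 151.9 ± 17.4 CPM in induced and 568 ± 232 CPM in Control libraries (mean ± SD, n = 2 each), a difference of -1.90 on the log2 scale (SE 0.611, 95% interval -3.28 to -0.53, adjusted p = 0.569). It passed when the 4 compared libraries were fitted alone (-1.95, adjusted p = 0.0135), without uninduced replicate 1 (adjusted p = 9.89e-05) or 2 (adjusted p = 0.000207) and with no filter on low counts, within a range over 11 alternative fits of 3.16e-10 to 1. The intervals of Egr1 (-0.19, 95% interval -0.64 to 0.26), Ier2 (0.06, -0.43 to 0.54) and Zfp36 (-0.28, -0.73 to 0.16) covered 0. So did those of the rest of the set except Jun and Nr4a1. No margin for likeness to Control was set beforehand, so a return to the Control level was not tested. Groups did not overlap for 3 higher genes (Fos, Fosb and Jun) and 4 lower ones (Nr4a1, Egr1, Zfp36 and Junb), where 20.8% and 16.8% of all tested genes were so placed. The median of the 10 was 0.04, beside -0.02 over all tested genes.

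**Figure D3:**
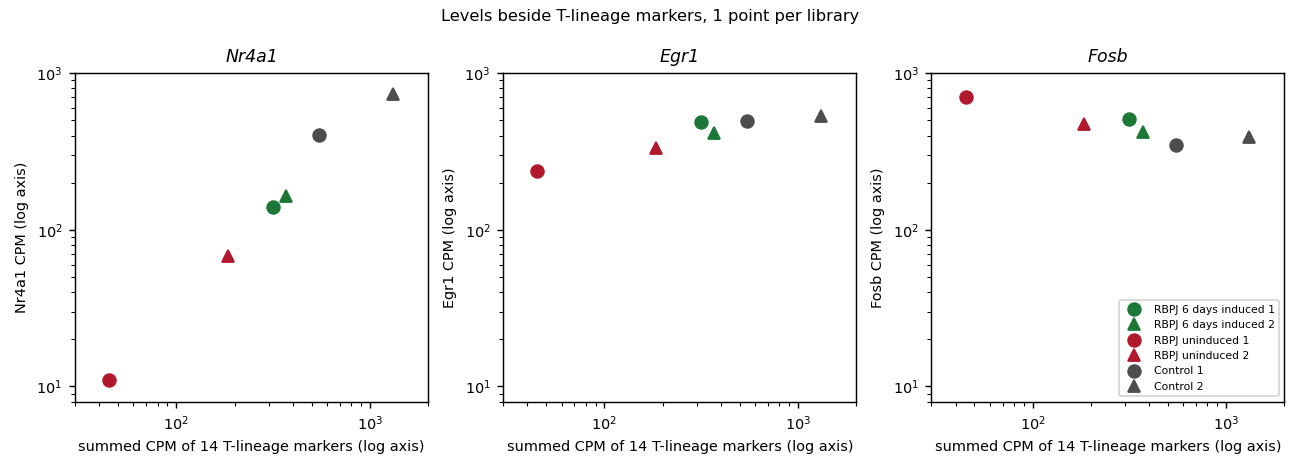
Nr4a1, Egr1 and Fosb (y axis, CPM, log axis) beside the summed CPM of 14 T-lineage and later thymocyte markers (x axis, log axis), 1 point per library. Nr4a1 follows the order of the marker sum in all 6 libraries, from uninduced replicate 1 (10.95 CPM at a sum of 45.03) to Control replicate 2 (731.6 CPM at a sum of 1315), whereas Fosb is highest (706.7 CPM) in the library with the lowest sum.

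Tcf7, the gene of the early T-lineage factor TCF1, was the largest item of that marker sum in every library but uninduced replicate 2, where Rag1, a recombinase gene of developing lymphocytes, was (126.4 CPM, 68.4% of the sum). Tcf7 stood at 175.4 and 212.8 CPM in induced, 13.04 and 27.4 CPM in uninduced and 360.7 and 479.6 CPM in Control libraries. Later markers stood out in Control replicate 2. Cd8a, a coreceptor of later thymocytes, was at 79.96 CPM in Control replicate 2 and between 1.22 and 3.20 CPM in the other 5 libraries. Nr4a1 was 403.8 CPM in Control replicate 1, where Cd8a was 3.20 CPM, and at most 164.2 CPM in the induced libraries, where Cd8a was 1.24 and 2.70 CPM. Tcf7, Lck, Cd6, Cd5 and Cd8b1 too were higher in Control replicate 1 than in both induced libraries. Lck, for example, was at 114.3 CPM there and at 75.7 and 91.1 CPM in induced libraries. Cd3e, Cd3g and Bcl11b were lower in Control replicate 1 than in both. The part of T-lineage cells in these Nr4a1 levels was not tested.

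Genes that act beside the 10 were read from 6 further lists, whose counts in uninduced against Control libraries stand beside 2.93% lower and 2.49% higher among all tested genes. Of 35 other immediate early and early response genes, 8 fell and 0 rose in uninduced against Control libraries (median log2 fold change -0.67). Egr3, a relative of Egr1, stood at 7.65 and 14.7 CPM in uninduced and 46.8 and 71.8 CPM in Control libraries (-2.39, adjusted p = 0.00956). Pim1, a survival kinase, stood at 84.7 and 65.98 CPM in uninduced and 357.8 and 379.1 CPM in Control libraries (-2.29, adjusted p = 0.000461), and Csrnp1, a nuclear factor, fell by 2.34 (adjusted p = 0.0109). Btg1, an antiproliferative gene, was at -1.17 (adjusted p = 0.0207, and 0.0543 without Control replicate 1). Nr4a3 and Nr4a2, the paralogues of Nr4a1 and named for that, did not pass, at -2.31 (adjusted p = 0.0935) and -0.93 (adjusted p = 0.306). Egr2, named for the same reason, was at 0.96 (adjusted p = 0.48). The count of 8 lower genes was 4 without either Control library, 17 without uninduced replicate 2, 13 with no filter on low counts and 1 in the fit of the 4 libraries.

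Of 14 genes of the NF-kappaB early response, 8 fell and 0 rose in uninduced against Control libraries, and all 14 log2 fold changes were below 0 (median -1.42). Tnf, the inflammatory cytokine, stood at 4.52 and 11.5 CPM in uninduced and 69.4 and 95.9 CPM in Control libraries (-3.33, adjusted p = 0.00365). Nfkbiz and Nfkbid, atypical members of the I-kappaB family, fell by 1.77 (adjusted p = 0.00365) and 1.96 (adjusted p = 0.00602) on the log2 scale. Birc3, an inhibitor of cell death, fell by 1.26 (adjusted p = 0.012). The count of 8 was 5 without Control replicate 2 and 3 in the fit of the 4 libraries. In induced against uninduced libraries 0 of the 14 passed in edgeR, 8 were higher at an unadjusted p under 0.05 (8.51% of all tested genes) and 7 were higher in DESeq2 (5.63%), with a median of 0.74. Without uninduced replicate 2, 4 passed in edgeR. With all libraries Nfkbiz was at 0.94 (adjusted p = 0.0751) and Tnf at 1.73 (adjusted p = 0.0763).

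Of 15 feedback inhibitors of MAP kinases and factors of mRNA decay, 4 fell and 0 rose in uninduced against Control libraries (median -0.81), a count that was 0 in the fit of the 4 libraries. The phosphatase gene Dusp5 stood at 17.4 and 72.2 CPM in uninduced and 354.8 and 503.3 CPM in Control libraries (-3.24, adjusted p = 0.00966). Dusp2 (-2.42, adjusted p = 0.0122), Dusp6 (-1.21, adjusted p = 0.0109, and 0.0572 without Control replicate 1) and Zfp36l2, a paralogue of Zfp36 (-1.25, adjusted p = 0.00887), were the others that fell. Zfp36l2 was also the 1 gene of the list that rose in induced against uninduced libraries (1.08, adjusted p = 0.0307), a call lost when either induced library was left out (adjusted p = 0.0893 and 0.121).

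Of 14 other AP-1 family genes, Fosl2 (-1.79, adjusted p = 0.0135) and the small MAF gene Maff (-2.44, adjusted p = 0.0448) fell in uninduced against Control libraries, Maff not without either Control library. The count of 2 was 5 without uninduced replicate 2 and 0 in the fit of the 4 libraries. In induced against uninduced libraries Fosl2 was at 0.97 (adjusted p = 0.163) and Maf at 1.15 (adjusted p = 0.2). Of 20 upstream kinases and factors, Elk3 (-1.21, adjusted p = 0.0204), an ETS partner of SRF, and Mrtfb (-0.997, adjusted p = 0.0399), an SRF coactivator, fell. Neither passed without Control replicate 1 (adjusted p = 0.132 and 0.294), nor Mrtfb without induced replicate 1. Elk3 rose in induced against uninduced libraries (1.17, adjusted p = 0.0407), a call lost when either induced library was left out (adjusted p = 0.249 and 0.0515). The upstream list had a median of -0.05 in uninduced against Control libraries. Of 12 heat shock genes, which tissue handling can also raise, 0 passed in uninduced against Control libraries by edgeR or DESeq2 (median -0.01). In edgeR 1 was higher at an unadjusted p under 0.05, where 10% of all tested genes were. Hsp90aa1 was at 0.52 (adjusted p = 0.238) and Hspd1 at 0.36 (adjusted p = 0.383). Hspa1a differed between the uninduced replicates (221.5 and 765.3 CPM), and the part of tissue handling was not tested. Leaving out uninduced replicate 1 gave 2 higher and leaving out uninduced replicate 2 gave 4 lower heat shock genes. Hspd1, a mitochondrial chaperonin, stood at 296.4 and 273.1 CPM in induced and 499.3 and 661.7 CPM in uninduced libraries and fell on induction (-1.03, adjusted p = 0.0357), though not when either induced library was left out (adjusted p = 0.213 and 0.306). In induced against uninduced libraries Pim1 (1.38, adjusted p = 0.00801) and Btg1 (1.15, adjusted p = 0.0387) rose among the 35 early response genes, Btg1 not without induced replicate 1 (adjusted p = 0.178). That count of 2 was 12 without uninduced replicate 2, 4 without uninduced replicate 1 and 0 in the fit of the 4 libraries.

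In induced against Control libraries no gene of the 6 lists passed in edgeR, while DESeq2 called 3 early response, 3 NF-kappaB, 1 feedback and 1 heat shock genes lower, beside 0.38% of the genes to which it gave an adjusted p. At an unadjusted p under 0.05, 9 early response, 7 NF-kappaB, 5 feedback, 1 AP-1, 1 heat shock and 0 upstream genes were lower, beside 1.55% of all tested genes. In edgeR without uninduced replicate 1 or 2, 4 early response and 4 NF-kappaB genes passed as lower. The genes with the smallest p of each list were Pim1 (-0.91, adjusted p = 0.123) and the zinc finger gene Klf10 (-0.91, adjusted p = 0.297), Tnf (-1.60, adjusted p = 0.263) and Nfkbiz (-0.83, adjusted p = 0.345), Dusp6 (-0.91, adjusted p = 0.176) and Dusp4 (-1.86, adjusted p = 0.411), Fosl2 (-0.82, adjusted p = 0.758) and Maff (-1.22, adjusted p = 0.991), the kinase gene Mapk9 (0.35, adjusted p = 1), and Hspd1 (-0.67, adjusted p = 0.431) and Hspa1a (-0.78, adjusted p = 1).

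**Figure D4:**
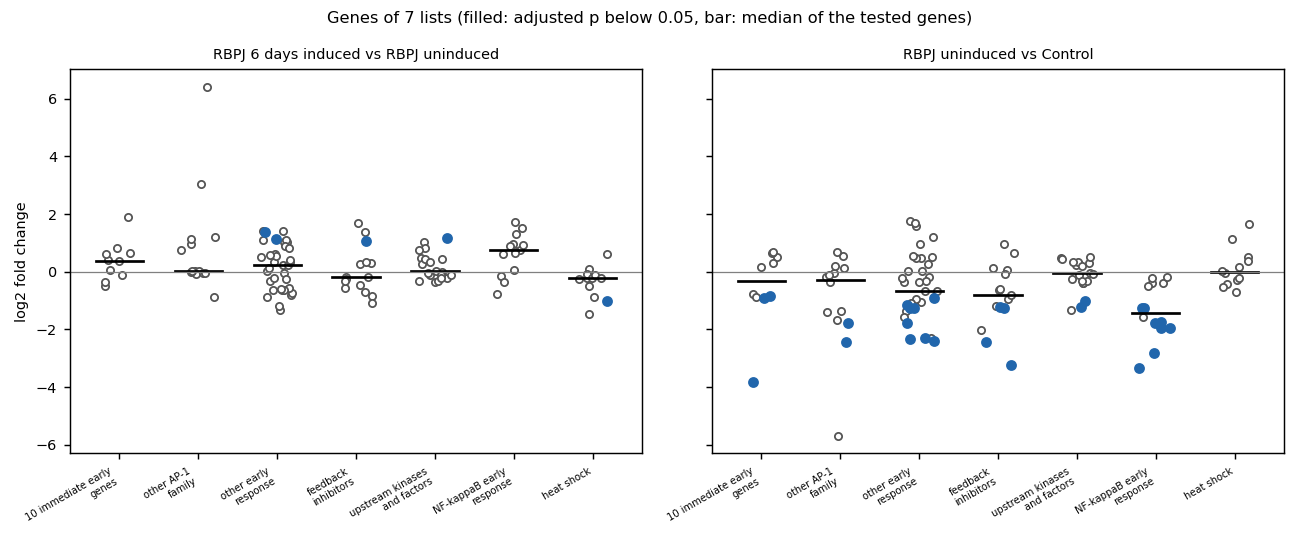
Log2 fold changes (y axis) of the tested genes of the 10 immediate early genes and 6 further lists, for RBPJ 6 days induced vs RBPJ uninduced and RBPJ uninduced vs Control. Each point is a gene, filled where the adjusted p was below 0.05, and bars are medians. In RBPJ uninduced vs Control all 14 NF-kappaB genes are below 0 (median -1.42), and heat shock genes lie on both sides (median -0.01).

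The profiles most like those of Nr4a1 and Egr1 were sought among 10178 other protein-coding genes with counts in all 6 libraries and a minimum average log2 CPM of 2. The measure was the root mean square difference of log2 CPM after centring each gene. Nearest to Nr4a1 were Cish (0.353 log2 units), Dusp5 (0.404), Sla2 (0.412), Tspan9 (0.518) and Rnf24 (0.546). In uninduced replicate 1 Sla2 (1.22 CPM), Rnf24 (0.695 CPM) and Tspan9 (0.348 CPM) rested on few reads, so their distances are uncertain. Cish, which encodes an inhibitor of cytokine receptors, stood at 18.1 and 24.1 CPM in induced, 1.91 and 11.3 CPM in uninduced and 35.9 and 75.0 CPM in Control libraries. By this measure, which counts the size of the differences, Junb was the nearest of the other 9 genes at place 691. Pearson's r with Nr4a1, which does not count size, was 0.971 for Junb and 0.956 for Egr1 (over the 6 libraries, as a description). For the 5 nearest genes r was 0.994 (Cish), 0.993 (Dusp5), 0.981 (Sla2), 0.9754 (Tspan9) and 0.962 (Rnf24). Nearest to Egr1 were Fbrs (0.0619), Map3k3 (0.0656), Tox4 (0.0799), Ypel5 (0.0802) and Rtn4 (0.0823), with Junb at place 43 and Ier2 at place 111 of the 10178. Further from Egr1 stood Zfp36 (place 792), Jun (3618), Dusp1 (5428), Fosb (7335), Fos (7587), Atf3 (7765) and, furthest of the set, Nr4a1 (9902). These are descriptions over 6 libraries that share their groups.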

How the data were processed

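The deposited files, 1 per library, hold raw counts by Ensembl gene ID. Per the submitters' processing notes, HISAT2, StringTie, HTSeq and mm10 were used, with versions, annotation release and strand setting not given in the sources used here. Names, coordinates and exon lengths are from GENCODE M21 on GRCm38, the mm10 build (47310 of 47729 IDs matched). The symbols Mkl1 and Mkl2 of the lists were matched through RefSeq synonyms.

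The 6 libraries entered 1 edgeR 4.0.16 quasi-likelihood fit in R 4.3.3 (1 coefficient a group, 3 residual degrees of freedom), after filterByExpr (minimum count 10, minimum total 15) and TMM scaling. p-values were adjusted by Benjamini-Hochberg across the 18174 genes tested, and the threshold was 0.05. The SE is the log2 fold change over the square root of F. The fit was tested on simulated data. Groups are those of the sample titles. Alternatives were DESeq2 1.42.0, its size factors, no filter, fits of the 4 compared libraries, a replicate block and leaving out each library. Chi-square per degree of freedom between replicates was 16.4 in induced, 54.1 in uninduced and 20.6 in Control libraries, so no library is a duplicate and the shared spread is an assumption.

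The 10 genes and all lists were chosen with earlier results of these data known, so they are not independent evidence. The naming rule takes all 10 genes, up to 4 genes per further list past the threshold (2 where none passed) and the 5 genes nearest to Nr4a1 and to Egr1, and 1 gene that it names is not reported here.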

Additional observations from a re-analysis of the deposited data

How the results depend on the processing

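With 2 libraries per group, counts of calls moved widely with the processing. Of all tested genes, induced against uninduced libraries gave 282 higher and 75 lower, induced against Control 34 and 0, and uninduced against Control 452 and 533. In the same order, no filter gave 675 and 314, 247 and 57, and 725 and 815, DESeq2 gave 746 and 492, 179 and 49, and 814 and 1045, and the fit of the 4 compared libraries gave 70 and 1, 142 and 35, and 93 and 126. Leaving out 1 library at a time gave 156 to 951 higher and 15 to 549 lower, 20 to 266 higher and 0 to 71 lower, and 185 to 1007 higher and 260 to 1165 lower. The samples share only a number (correlations of same-numbered deviations from -0.041 to 0.025), and the replicate block gave 133 lower genes in induced against uninduced libraries and 101 higher and 7 lower in induced against Control.

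Of the 10 genes, 3 were lower in uninduced against Control libraries, 5 with no filter or with DESeq2, 0 in the fit of the 4 libraries and 1 to 4 with a library left out, when 0 to 2 were higher. In induced against uninduced libraries 0 were higher, 2 with no filter, 1 with the replicate block (Nr4a1), 3 with DESeq2 and 0 to 3 with a library left out. In induced against Control 0 were lower, 1 with no filter, 1 in the fit of the 4 libraries and 0 to 1 with a library left out. The gene behind each single call in that comparison was Nr4a1. Junb passed in uninduced against Control libraries in 6 of 11 alternatives and Ier2 in 3.

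Signs that turned belonged to genes past no threshold with all libraries. With a library left out, induced against uninduced ran from -0.45 to 0.41 for Fos, -0.59 to 0.02 for Fosb, -0.082 to 0.33 for Dusp1 and -1.12 to 0.92 for Atf3. Uninduced against Control ran from -0.021 to 0.26 for Jun, -0.017 to 0.60 for Dusp1 and -0.88 to 1.17 for Atf3. Induced against Control ran from -0.14 to 0.29 for Ier2 and -0.43 to 0.70 for Atf3, and Ier2 was at -0.0091 with DESeq2 and -0.0085 with its size factors, and Atf3 at -0.067, -0.057 and, in the fit of the 4 libraries, -0.022. The cause of each change was not tested. The recomputation for the 6 further lists was added after the data were seen.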

Other observations

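Atf3, the stress-induced member of the set, and Hspa1a, an inducible heat shock gene, differed between replicates in the same direction in all 3 groups. Atf3 was at 43.4 and 29.6 CPM in induced, 19.5 and 82.6 CPM in uninduced and 21.9 and 50.9 CPM in Control libraries. Hspa1a was at 564.5 and 378.4 CPM in induced, 221.5 and 765.3 CPM in uninduced and 548.9 and 1075 CPM in Control libraries. The pair was picked after the values were seen.

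Jund, the third JUN gene, was at 124.2 and 158.7 CPM in induced, 67.3 and 220.7 CPM in uninduced and 137.6 and 173.9 CPM in Control libraries. The uninduced replicates were further apart than any pair of groups.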
